A study of Mus musculus and Homo sapiens with 27 samples.

Results

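The comparison described here is the late against the early response to lipopolysaccharide (LPS) in Irf4 heterozygous mouse B cells. Its members are 8 of the 27 arrays of the study, chosen by the labels: 4 arrays at 96 h form the late group, and 2 arrays at 24 h with 2 at 48 h, pooled, form the early group. The study followed LPS cultures of splenic B cells with 1 or no intact copy of Irf4 on mouse arrays, 23 in all, and a human lymphoma line with an IRF4 vector on 4 further arrays. The cells of all 8 arrays came from the spleen of adult Balb-c mice, carried Irf4 -/+ and grew at 37C in RPMI with 10% FBS. The labels give the LPS dose as 20 to 25 mg/ml, a unit that could not be checked here and may be wrong. No wild-type B cells are among these groups. The heterozygous values below are from cells with 1 intact Irf4 allele, and the knockout values set beside some of them from cells with none. The design text calls the repeats biological, but whether they came from separate mice is not stated, so p-values measure the spread between these arrays.

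LPS, a component of bacterial outer membranes, drives resting B cells first to grow and divide and then, in part of the culture, to become antibody-secreting plasmablasts. Plasmablasts make and assemble immunoglobulin and enlarge the endoplasmic reticulum through the transcription factor XBP1. They can still divide, and exit from the cell cycle comes on the way to the plasma cell, under Blimp-1, the product of Prdm1. IRF4 is a transcription factor that this differentiation needs, and its level in the cell rises on the way to the plasma cell.

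Each array measured Cy5-labelled RNA of the cultured cells against a Cy3-labelled pool of RNA from B-cell, T-cell and monocyte lines. Values are log2 ratios to that pool after each array was set to a median of 0 over its 12292 features. A value of 1 therefore means 1 log2 unit above the pool, and no value is an absolute amount of RNA. The direction of the ratio was taken as sample over pool. With that direction Cd79b, a signalling chain of the B-cell receptor, lay above the pool on 8 of 8 arrays, between 2.26 and 3.02. Cd79b was the only 1 of 10 B-cell markers listed that could be measured. The 331 genes tested are those with a gene symbol, 222 of them averaged over several features. Irf4 itself was not among them. The T and NK markers Cd3g, Tcra and Gzma had a summed ratio of 1.4 to 1.55 in the early arrays and 1.29 to 2.16 in the late ones. The genes listed as myeloid markers, Tyrobp, Ncf1 and Cybb, summed to 7.47 to 15.7 early and 8.46 to 15.1 late. Both ranges overlapped between early and late. Which cells carried the RNA of these genes was not tested, so the sums do not measure the content of other cells. These 6 were the ones measured of 24 T and NK and 19 myeloid markers, and no erythroid marker was measured.

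One early array stood apart. In Het 24 h replicate 1, 15.4% of all features lay more than 6 log2 units from the pool, against 0.0814% to 1.95% in the other 7 arrays. Its correlation with those arrays over the 331 genes was 0.15 to 0.54, while the other early arrays correlated at 0.72 to 0.83 with each other and the late arrays at 0.76 to 0.89. The arrays also fall into 3 ranges of the number that the authors' database gave them, shown in the titles. All 4 late arrays lie in the highest range. Of the early arrays 1 lies in the lowest range, 2 in the middle one and 1, Het 48 h replicate 2, in the highest. Results are therefore also given without Het 24 h replicate 1 and against Het 48 h replicate 2. Of the 3 resting heterozygous arrays (0 h) set beside some results, replicates 1 and 2 lie in the lowest range and were nearly as wide, with 10.9% and 12.8% of features beyond 6 log2 units. Resting replicate 3 lies in the highest range, with 1.53%.

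Between early and late, 91 of 331 genes fell (27.5%) and 11 rose (3.32%), by limma with Benjamini-Hochberg adjusted p under 0.05, and 145 had an unadjusted p under 0.05. The fallen genes include the replication factors Pcna and Mcm2, nucleolar and growth genes such as Ncl, Npm1 and Myc, and the glycolytic enzymes Pkm, Gapdh and Ldha. The risen genes include Jchain, the joining chain of secreted antibody, and Socs2, an inhibitor of cytokine signalling. The median gene moved by -0.54. In 116 genes (35%) all late arrays lay below all early arrays, and in 13 genes (3.93%) all lay above. All 91 fallen genes and 10 of the 11 risen genes were among these.

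The balance of falls against rises depends on what the arrays are centred on. When each array was centred on the median of its named features instead, the median gene moved by 0.26, and 49 genes rose (14.8%) while 50 fell (15.1%). All 50 were among the 91, and all 11 risen genes were among the 49. Without Het 24 h replicate 1, 79 genes fell and 13 rose, 76 and 10 of them shared with the fit of 8 arrays. Without Het 96 h replicate 1, 60 fell and 9 rose.

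Het 48 h replicate 2 is the 1 early array in the database range of the late arrays. Against it alone, the median late difference over all 331 genes was -0.35, beside -0.54 over all 8 arrays. Over the fallen genes it was -1.33 and over the risen genes 2.17, but this array took part in the fit that chose them, so these are descriptions and no check on the range. With the range as a term in the fit, 0 genes fell and 1 rose. When the knockout arrays of that range lent their spread, an alternative chosen after seeing the data, 43 fell and 11 rose. All 43 and 10 of the 11 were also called in the fit of 8 arrays. The fit with the knockout arrays' spread had 1 early heterozygous array. Of its 3 early knockout arrays 2 carry conflicting genotype labels, described below. When each feature was tested on its own with adjustment over all 12292 features, most of them without a gene symbol, no gene passed in either direction. The counts above are thus adjusted over the 331 named genes and no further.

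Jchain had the largest change of any gene that passed. The J chain links immunoglobulin units into pentameric IgM and dimeric IgA. Jchain lay at -0.56 and -2.02 at 24 h, at 0.89 and -0.35 at 48 h, and at 3.78, 4.18, 4.09 and 4.15 at 96 h. All late arrays lay above all early arrays. The mean went from -0.51 ± 1.19 (SD, n = 4) to 4.05 ± 0.18 (SD, n = 4), a rise of 4.56 ± 0.54 (SE, 23.6-fold, limma adjusted p = 0.00317). Before LPS, Jchain lay at 1.83, 2.65 and 1.45 on the 3 heterozygous arrays, so the early arrays were below the resting ones and the late arrays above them. The first 2 of these values are from the wide resting arrays, and the order is the same with resting replicate 3, at 1.45, alone. Against Het 48 h replicate 2 the rise was 4.40.

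Iglv1, a variable segment of the immunoglobulin lambda chain, lay between 1.88 and 2.93 on the early arrays and between 3.11 and 3.87 on the late ones. The groups did not overlap, and Iglv1 rose by 1.28 ± 0.32 (SE, limma adjusted p = 0.0161). The Iglv1 call was lost without Het 96 h replicate 2 (limma adjusted p = 0.0535). Its 2 features differed, with changes of 0.42 and 2.14, and related lambda segments can share such features. Mzb1, an endoplasmic reticulum protein that helps IgM assembly, is the third antibody gene measured. It lay at -9.19 and -0.31 at 24 h, at 1.00 and 0.44 at 48 h, and at 0.49, 1.03, 1.22 and 1.51 at 96 h. The groups overlapped, and the first of these values came from Het 24 h replicate 1. Its difference was 3.08 ± 1.98 (SE, adjusted p = 0.269), and 0.69 without that array (limma adjusted p = 0.204).

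**Figure D1:**
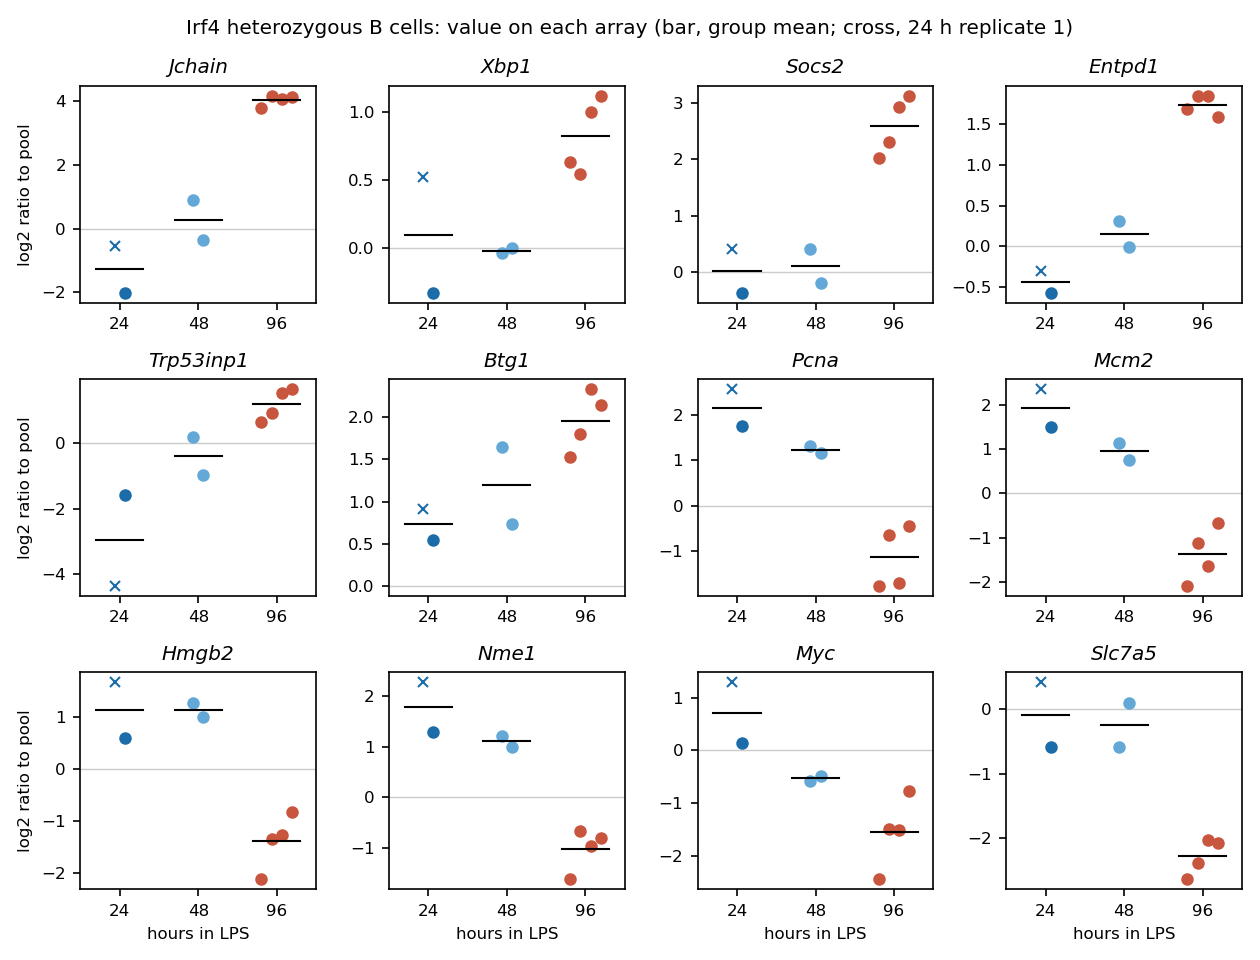
Log2 ratio to the pool (vertical axis) of 12 genes on each of the 8 Irf4 heterozygous arrays by hours in LPS (horizontal axis). Points are arrays, the cross is Het 24 h replicate 1 and bars are group means; Jchain sits between 3.78 and 4.18 at 96 h and at most at 0.89 before, while Pcna sits at 1.16 or above early and at -0.44 or below late.

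With arrays centred on all features, none of the plasma cell regulators measured passed the test upward. Of 6 measured plasma cell regulators and surface genes 0 rose and 1, Slc7a5, fell, with a median of 0.37 beside -0.54 for all genes. Only 3.32% of all genes rose, so 0 of 6 does not set this list apart. The count also depends on the scaling. Under centring on the named features, without centring and with arrays scaled to 1 spread, 2 of the 6 rose. Of all 331 genes 49, 16 and 15 rose there, in that order. After quantile normalization 0 of the 6 rose. Xbp1 lay at 0.52 and -0.33 at 24 h, at -0.04 and -0.001 at 48 h, and at 0.63, 0.54, 1.00 and 1.12 at 96 h. All late arrays lay above all early arrays, with the lowest late value at 0.54 and the highest early one at 0.52. The difference was 0.79 ± 0.29 (SE, limma adjusted p = 0.0658). It was 0.95 without Het 24 h replicate 1 (limma adjusted p = 0.0335), and under centring on the named features 1.58 (limma adjusted p = 0.000891).

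Ell2, an elongation factor that favours the secreted form of the antibody heavy chain, also had no overlap between the groups. It lay between -0.18 and 0.79 early and between 1.08 and 1.48 late, a difference of 0.80 ± 0.29 (SE, limma adjusted p = 0.0664). It passed under centring on the named features (1.59, limma adjusted p = 0.00467). Prdm1 lay at 1.87 and -1.20 at 24 h, at 0.30 and 1.01 at 48 h, and between 0.87 and 1.37 at 96 h, with overlapping groups and a difference of 0.69 ± 0.58 (SE, limma adjusted p = 0.391). Sdc1, the plasma cell surface proteoglycan syndecan-1, lay below the pool on all 8 arrays, between -3.10 and -1.42, and differed by 0.05 ± 0.43 (SE, limma adjusted p = 0.959).

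The summed ratio of 6 plasmablast markers was 3.4 to 7.93 on the early arrays and 21.8 to 26.9 on the late ones. Of these 6, only Jchain passed the test. Jchain alone gave 0.246 to 1.85 early and 13.8 to 18.1 late, and the other 5 markers together 3.15 to 6.9 early and 8.05 to 9.28 late. In RNA of whole cultures, more plasmablasts and more RNA of a gene per plasmablast cannot be told apart.

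Slc7a5 was the member of the regulator and surface list that fell. It encodes the light chain of an amino acid transporter that activated lymphocytes use to grow. Slc7a5 lay between -0.59 and 0.42 on the early arrays and between -2.64 and -2.03 on the late ones, with no overlap. It fell by 2.12 on the log2 scale (SE 0.32, 4.36-fold, limma adjusted p = 0.00317). Slc3a2, the heavy chain of the same transporter, differed by -0.54 ± 0.32 (SE, limma adjusted p = 0.239), and its groups overlapped.

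In the endoplasmic reticulum list, 13 measured genes for translocation, folding and stress, 0 rose and 2 fell, with a median of -0.30 beside -0.54 for all genes, of which 27.5% fell. Sec11a, a subunit of the signal peptidase, lay between 0.35 and 0.84 early and between -1.28 and 0.01 late, a change of -1.08 ± 0.33 (SE, limma adjusted p = 0.0347). Atf4, a transcription factor of the stress response, changed by -1.21 ± 0.37 (SE, limma adjusted p = 0.0353). The Sec11a call was lost without Het 24 h replicate 2, Het 48 h replicate 1 or any of Het 96 h replicates 1 to 3 (limma adjusted p up to 0.0877). The Atf4 call was lost without any 1 of the 8 arrays except Het 24 h replicate 2 and Het 96 h replicate 4 (up to 0.0902). Under centring on the named features 0 fell and 3 rose, where 14.8% of all genes rose. The list median was then 0.50, beside 0.26 for all genes. The 3 were Dnajc3, a co-chaperone (0.96, limma adjusted p = 0.00495), Herpud1, a factor of ER-associated degradation (0.73, limma adjusted p = 0.0177), and Sel1l, an adaptor of the same degradation (1.24, limma adjusted p = 0.0123). Without centring, after quantile normalization and with arrays scaled to 1 spread the list median was -0.085, -0.415 and -0.332, and 0 rose. The sign of the list median therefore depends on the centring, as does that of all genes.

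Of 8 measured Golgi and vesicle genes 0 rose and 2 fell, a share near the 27.5% of all genes that fell, with a median of -0.38 beside -0.54 for all genes. With centring on the named features 0 moved. Hs2st1, a heparan sulfate sulfotransferase, fell by 2.24 on the log2 scale (SE 0.67, limma adjusted p = 0.0317), with its late arrays spread from -4.16 to -0.96. Uso1, a tethering factor of vesicles, fell by 0.94 on the log2 scale (SE 0.30, limma adjusted p = 0.0401). Hs2st1 did not pass when Het 24 h replicate 2 was left out, nor without either 48 h array or Het 96 h replicate 3 or 4 (limma adjusted p up to 0.0816). Uso1 did not pass without any 1 array other than Het 96 h replicate 4 (limma adjusted p up to 0.101).

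Genes of DNA replication and the cell cycle fell together. Of 13 measured, 9 fell and 0 rose, against 27.5% of all genes that fell, with a median of -2.05 beside -0.54 for all genes. Under centring on the named features, without centring, with arrays scaled to 1 spread and after quantile normalization, 9, 9, 9 and 10 of the 13 fell. Their median under those scalings lay between -1.25 and -2.59.

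Pcna, the sliding clamp of the replication fork, lay at 2.56 and 1.75 at 24 h, at 1.31 and 1.16 at 48 h, and at -1.76, -0.64, -1.69 and -0.44 at 96 h. Every early array was above the pool and every late array below it. Pcna fell by 2.83 on the log2 scale (SE 0.44, 7.11-fold, limma adjusted p = 0.00317). On the 3 resting heterozygous arrays it lay at 0.48, 0.28 and -1.59, so the late arrays overlapped the resting range. That overlap rests on resting replicate 3, at -1.59; on the wide resting arrays, replicates 1 and 2, Pcna lay above every late array.

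Mcm2, a subunit of the replicative helicase, lay at 2.35 and 1.50 at 24 h, at 1.14 and 0.76 at 48 h, and at -2.10, -1.12, -1.64 and -0.67 at 96 h. It too crossed from above to below the pool, and fell by 2.82 on the log2 scale (SE 0.44, limma adjusted p = 0.00317). Hmgb2, a chromatin protein of dividing cells, lay between 0.60 and 1.67 early and between -2.11 and -0.82 late. It fell by 2.52 on the log2 scale (SE 0.36, limma adjusted p = 0.00317). Nasp, a histone chaperone, fell by 2.52 on the same scale, and Tubb5, a beta-tubulin, by 2.54.

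Tk1, thymidine kinase, fell by 2.05 on the log2 scale. Cdk4, a kinase of the G1 phase, fell by 2.02. Ccne1, cyclin E1, fell by 1.92, and Fen1, a nuclease that trims Okazaki fragments, by 1.89. In each of these 9 genes the early and late arrays did not overlap, as in all 91 fallen genes, so this adds nothing to the calls. Of all 331 genes 35% had every late array below every early one.

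The other 4 genes of the list did not pass. Plk1, a mitotic kinase, differed by -2.33 ± 1.23 (SE, limma adjusted p = 0.18), with Het 24 h replicate 1 at -3.83 among the early arrays. Rrm2, a subunit of ribonucleotide reductase, differed by -1.87 ± 0.77 (SE, limma adjusted p = 0.0953), with Het 48 h replicate 2 at -1.79. Mki67, the proliferation antigen Ki-67, differed by -0.64 ± 0.58 (SE, limma adjusted p = 0.425), and its early and late arrays overlapped. Ccnd1, cyclin D1, lay between -4.29 and -2.38 on every array and differed by -0.03 ± 0.45 (SE, limma adjusted p = 0.972).

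**Figure D2:**
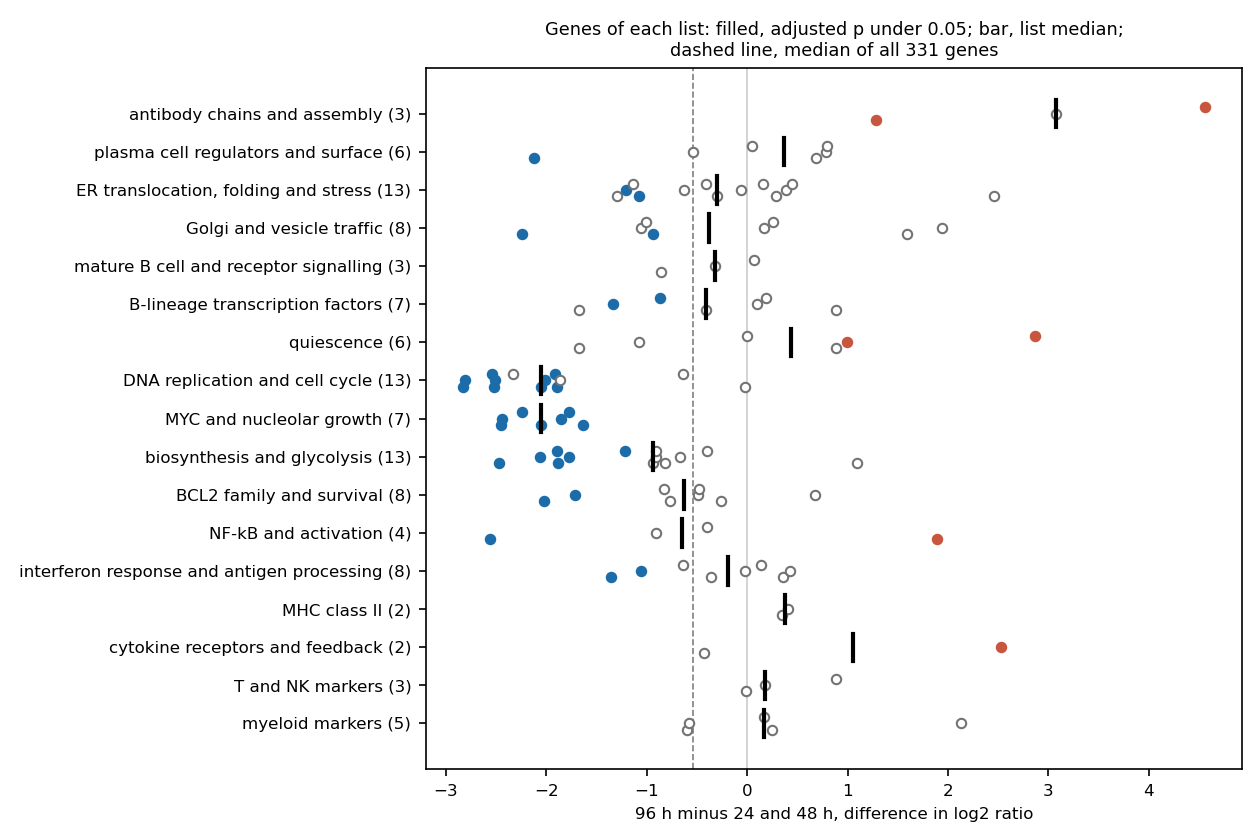
Difference of each gene between the late (96 h) and early (24 and 48 h) arrays in log2 units (horizontal axis), grouped by gene list (vertical axis, number measured in brackets). Filled points passed an adjusted p of 0.05, bars are list medians and the dashed line is the median of all 331 genes at -0.54; the replication list and the MYC list have medians of -2.05 and -2.06.

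The MYC and nucleolar list holds Myc itself and growth genes that MYC is known to regulate. All 7 measured genes of the list fell, against 27.5% of all genes, with a median of -2.06 beside -0.54 for all genes. Under centring on the named features 6 of the 7 fell, against 15.1% of all genes. Whether the other falls depend on Myc was not tested. Myc lay at 1.29 and 0.14 at 24 h, at -0.57 and -0.48 at 48 h, and at -2.43, -1.48, -1.50 and -0.77 at 96 h. The groups did not overlap, but the 48 h arrays stood closer to the late ones than the 24 h arrays did. Myc fell by 1.64 on the log2 scale (SE 0.50, 3.11-fold, limma adjusted p = 0.0347). Its call was lost under centring on the named features (-0.84, limma adjusted p = 0.115) and without Het 24 h replicate 2 or any of Het 96 h replicates 1 to 3, where the adjusted p reached 0.0929.

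Nme1, a nucleoside diphosphate kinase, lay at 2.27 and 1.30 at 24 h, at 1.22 and 0.99 at 48 h, and at -1.61, -0.67, -0.95 and -0.80 at 96 h. All early arrays were above the pool and all late ones below it. Nme1 fell by 2.45 on the log2 scale (SE 0.36, 5.47-fold, limma adjusted p = 0.00317). Pa2g4, a growth-regulated RNA-binding protein, fell by 2.44 on the log2 scale, and Ncl, nucleolin, by 2.24. Npm1, the ribosome assembly chaperone nucleophosmin, fell by 2.06. Rheb, the small GTPase that activates mTORC1, fell by 1.85, and Ctps, CTP synthase, by 1.78.

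Of 13 biosynthesis and glycolysis genes, which include Ctps again, 6 fell and 0 rose, against 27.5% of all genes that fell, with a median of -0.94 beside -0.54 for all genes. Under centring on the named features 5 fell, against 15.1% of all genes, and the median was -0.15 beside 0.26 for all genes. Pkm, pyruvate kinase, lay between -0.84 and 0.17 early and between -3.63 and -2.20 late. It fell by 2.47 on the log2 scale (SE 0.39, 5.53-fold, limma adjusted p = 0.00317). Gapdh fell by 2.06, Ldha, lactate dehydrogenase, by 1.89, and Got2, the mitochondrial aspartate aminotransferase, by 1.89. Mthfd2, an enzyme of mitochondrial one-carbon metabolism, fell by 1.22 on the log2 scale and lost its call under centring on the named features (-0.42, limma adjusted p = 0.2). On the 3 resting heterozygous arrays the median of this list was -1.87 to -1.60, on the early arrays -0.51 to 0.31, and on the late arrays -1.54 to -0.94. The highest resting value, -1.60 on resting replicate 3, was just below the lowest late one, -1.54, and the other 2 resting values are from the wide arrays.

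**Figure D3:**
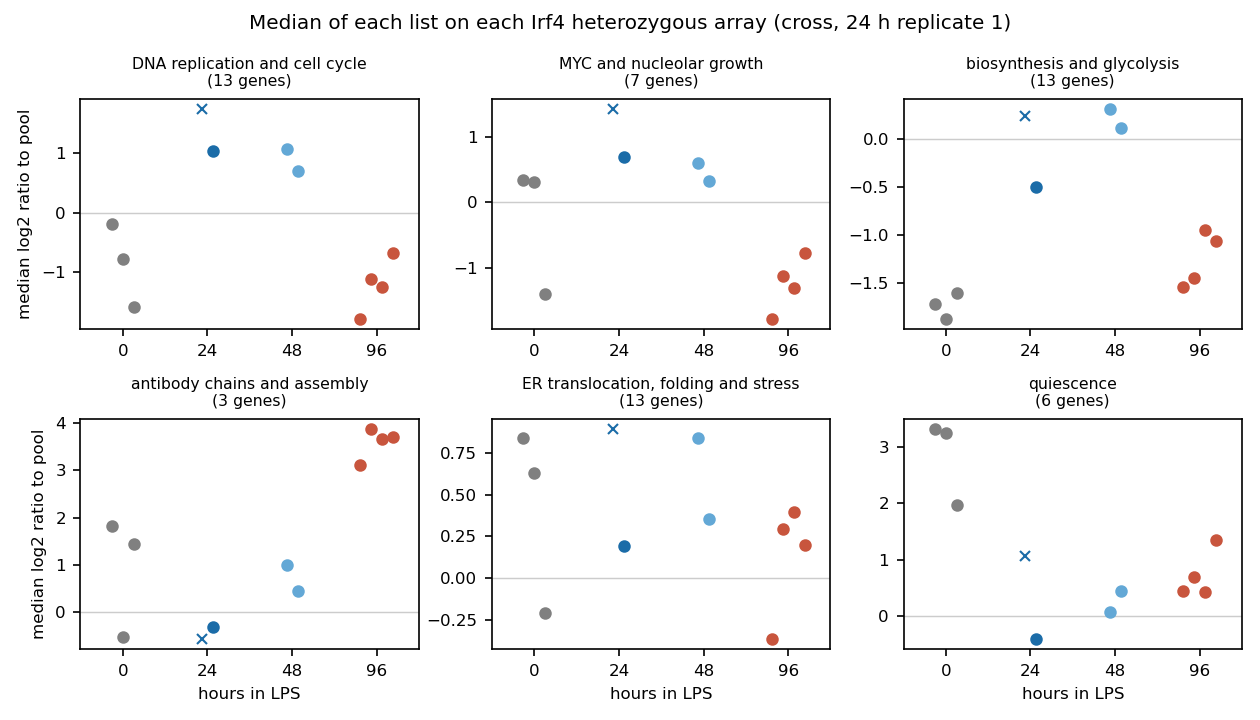
Median log2 ratio to the pool (vertical axis) of 6 gene lists on each Irf4 heterozygous array by hours in LPS (horizontal axis, 0 is before LPS). Points are arrays and the cross is Het 24 h replicate 1; the replication median lies at 0.70 or above at 24 and 48 h and at -0.69 or below at 96 h.

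The promoters of the fallen growth genes were searched for the E-box CACGTG, the sequence that MYC binds, in the 250 bases before each RefSeq start (build GRCm38.p6). The motif reads the same on both strands. It was found in 17 of the 74 fallen genes with a promoter entry (23%) and in 1 of 7 risen ones, Adck1. It was found in 37 of the 266 tested genes with an entry (13.9%), and in 6.86% of all 27025 genes of the table. A second motif, the E2F type of replication genes, spelled TTTCCCGC or TTTGGCGC on either strand, was found in 0 of the 9 fallen replication genes, in 4 of the 74 fallen genes (5.41%) and in 1 of 7 risen ones, Ints7. It was found in 11 of the 266 tested genes (4.14%) and in 1.51% of all genes of the table. A match is a description of the letters and not a measured binding site, and a missing match says nothing of the factor. The 5 stretches shown are 100 bases from the 250 upstream of fallen replication, MYC-list or glycolysis genes that hold the E-box. Fen1, a fallen replication gene, also holds it and is not shown. The stretches are printed 5′ to 3′ on the gene's strand with the motif in capitals.
Tubb5, chr17:35838324-35838423, minus strand: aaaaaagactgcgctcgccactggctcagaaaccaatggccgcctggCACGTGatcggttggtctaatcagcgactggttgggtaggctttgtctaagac
Cdk4, chr10:127063435-127063534, plus strand: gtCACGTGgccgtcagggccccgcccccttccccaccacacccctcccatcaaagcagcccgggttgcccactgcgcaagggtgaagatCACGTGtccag
Nme1, chr11:93968273-93968372, minus strand: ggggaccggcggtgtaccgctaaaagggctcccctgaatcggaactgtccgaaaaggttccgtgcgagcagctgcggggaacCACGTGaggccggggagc
Rheb, chr5:24842405-24842504, minus strand: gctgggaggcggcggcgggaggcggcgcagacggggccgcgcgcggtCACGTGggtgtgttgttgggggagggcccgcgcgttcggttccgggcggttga
Ldha, chr7:46845704-46845803, plus strand: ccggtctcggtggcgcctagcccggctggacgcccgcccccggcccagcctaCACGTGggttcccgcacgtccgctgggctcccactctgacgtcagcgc

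The stretches of Cdk4, Nme1 and Ldha end at the gene's start, that of Tubb5 ends 22 bases before it and that of Rheb 43 bases before it. The motif nearest the start ends 5 bases before it in Cdk4, 12 in Nme1, 42 in Ldha, 69 in Tubb5 and 90 in Rheb. Cdk4 holds 4 copies within the 250 bases, of which 2 are shown, and Ldha holds 2. The changes of these 5 genes ranged from -2.54 for Tubb5 to -1.85 for Rheb.

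Several large falls were outside these lists. Brca1, a DNA repair protein, lay between 0.46 and 1.24 early and at -1.80, -0.96, -3.75 and -2.42 late. It had the largest fall of all, 2.98 on the log2 scale (SE 0.55, 7.90-fold, limma adjusted p = 0.00385), with a late spread of 1.17 (SD, n = 4). Ahcy, which breaks down S-adenosylhomocysteine, fell by 2.63. Tuba4a, an alpha-tubulin, fell by 2.53, and Dnah7b, an axonemal dynein heavy chain, by 2.48.

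Akap12, a scaffold protein of protein kinase A in the activation list, lay at 0.06 and -0.91 at 24 h, at -0.65 and -0.60 at 48 h, and at -2.64, -2.92, -3.85 and -2.93 at 96 h. The highest late array was below the lowest early one. Akap12 fell by 2.56 on the log2 scale (SE 0.35, 5.91-fold, limma adjusted p = 0.00317). On the other side of the same list of 4, Entpd1, the ectonucleotidase CD39, rose. It lay at -0.30 and -0.57 at 24 h, at 0.32 and -0.01 at 48 h, and at 1.69, 1.85, 1.85 and 1.59 at 96 h. The groups did not overlap, and the rise was 1.89 ± 0.28 (SE, 3.70-fold, limma adjusted p = 0.00317). Ikbke and Jun did not pass (-0.91 and -0.40).

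Socs2, which dampens JAK-STAT signalling from cytokine receptors, lay at 0.42 and -0.37 at 24 h, at 0.41 and -0.20 at 48 h, and at 2.02, 2.30, 2.92 and 3.13 at 96 h. The lowest late array, at 2.02, was above the highest early one, at 0.42. Socs2 rose by 2.53 ± 0.35 (SE, 5.77-fold, limma adjusted p = 0.00317). Csf1, the other gene of the cytokine list, differed by -0.43 ± 0.39 (SE, limma adjusted p = 0.429).

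Of the risen genes 5 belong to none of the pathway lists used here, and 4 of these, Ints7, Trim27, Trim65 and Adck1, are in a list of 9 genes that earlier work on these arrays chose as low in Irf4 knockout at 96 h. That choice used the same late arrays, so 8 of the 9 rising is no independent evidence. Ints7, a subunit of the Integrator complex, lay between 1.35 and 2.54 early and between 3.67 and 4.66 late. It rose by 2.25 ± 0.39 (SE, 4.74-fold, limma adjusted p = 0.00385). Trim27 and Trim65, members of the tripartite motif family of ubiquitin ligases, rose by 2.27 ± 0.43 and 1.79 ± 0.33 (SE, limma adjusted p = 0.00437 and 0.00385). Adck1 rose by 1.87 ± 0.35 (SE, limma adjusted p = 0.00385). All 4 rest on 1 feature each. In all 4 the early and late arrays did not overlap, as in 10 of the 11 risen genes. The fifth, Itgb5, the integrin beta 5 chain, rose by 2.74 ± 0.77 (SE, limma adjusted p = 0.0252), with Het 24 h replicate 1 at -4.29 and Het 96 h replicate 3 at 2.24. Its call was lost without Het 96 h replicate 1 (limma adjusted p = 0.054).

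Of 6 measured genes of quiescence 2 rose and 0 fell, where 3.32% of all genes rose, with a median of 0.44 beside -0.54 for all genes. Trp53inp1, a stress protein induced by p53, lay at -4.36 and -1.58 at 24 h, at 0.20 and -0.98 at 48 h, and at 0.65, 0.91, 1.53 and 1.65 at 96 h. All late arrays lay above all early ones, and the rise was 2.86 ± 0.84 (SE, limma adjusted p = 0.0308). It was 1.97 without Het 24 h replicate 1 (limma adjusted p = 0.00883). It did not pass when Het 24 h replicate 2 or any 1 of the late arrays was left out (limma adjusted p up to 0.0691).

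Btg1, an antiproliferative protein of resting lymphocytes, lay between 0.55 and 1.65 early and between 1.53 and 2.33 late. Its groups overlapped, and it rose by 0.99 ± 0.33 (SE, limma adjusted p = 0.0471). That call was lost without any 1 array other than Het 48 h replicate 1 (limma adjusted p up to 0.121). Before LPS it lay at 4.21, 3.71 and 2.70, above every late array, the last value being that of resting replicate 3. Tsc22d3, the glucocorticoid-induced leucine zipper, lay at 5.31, 4.00 and 3.25 before LPS, between -1.50 and -0.06 early and between -1.11 and -0.10 late. Its early and late groups overlapped, with a difference of -0.004 ± 0.38 (SE, limma adjusted p = 0.992). Btg3 differed by -1.08 ± 0.38 (SE, limma adjusted p = 0.0578).

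In the other lists few genes passed. Of 7 B-lineage transcription factors 2 fell, a share near the 27.5% of all genes: Cbfb, the partner of RUNX proteins (-1.33, limma adjusted p = 0.0222), and Tcf4, an E protein (-0.87, limma adjusted p = 0.046). Under centring on the named features neither fell and 1 gene of the list rose, where 14.8% of all genes rose. Cbfb did not pass when replicate 1 or 2 at 96 h was left out (limma adjusted p up to 0.0586), and Tcf4 when any array was left out but Het 96 h replicate 3 (up to 0.114). Foxp1 differed by -1.67 ± 0.87 (SE, limma adjusted p = 0.177), with late arrays at 1.40, 1.69, -2.36 and 2.09. Of 8 interferon and antigen processing genes 2 fell, again a share near 27.5%, the peptide transporter Tap1 (-1.36, limma adjusted p = 0.0224) and the immunoproteasome subunit Psmb10 (-1.06, limma adjusted p = 0.0401). Under centring on the named features 0 fell and 1 rose, again where 14.8% of all genes rose. Tap1 did not pass when replicate 1 at 48 h, replicate 1 at 96 h or replicate 2 at 96 h was left out (limma adjusted p up to 0.0593), and Psmb10 when any array was left out but Het 48 h replicate 2 (up to 0.095).

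Of 8 genes of the BCL2 family and survival list 2 fell, a share near the 27.5% of all genes. Bid, which links death receptors to the mitochondria, lay between 1.12 and 2.19 early and between -0.79 and -0.18 late, and fell by 2.02 on the log2 scale (SE 0.33, limma adjusted p = 0.00333). Bcl2, the founding survival protein, fell by 1.72 on the log2 scale (SE 0.53, limma adjusted p = 0.0365), with Het 96 h replicate 3 at -3.15. Without any 1 of the early arrays or Het 96 h replicate 1 it did not pass (limma adjusted p up to 0.0801). Its call was lost under centring on the named features (limma adjusted p = 0.211), and that of Bid was kept (limma adjusted p = 0.00712). Birc3 differed by -0.83 ± 0.31 (SE, limma adjusted p = 0.0698) and passed without Het 48 h replicate 2 (limma adjusted p = 0.0289).

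The B-cell receptor and MHC class II genes measured did not pass in either direction. Cd79b differed by 0.07 ± 0.27 (SE, limma adjusted p = 0.88). Bank1, an adaptor of B-cell receptor signalling, differed by -0.32 ± 0.32 (SE, limma adjusted p = 0.468), and Tagap1 by -0.86 ± 0.31 (SE, limma adjusted p = 0.0645). The MHC class II chaperone genes H2-DMa and H2-DMb1 differed by 0.35 and 0.40 (limma adjusted p = 0.499 and 0.289). Under centring on the named features Cd79b, H2-DMa and H2-DMb1 rose (0.87, 1.15 and 1.20). None of 3 T and NK or 5 myeloid markers passed, with medians of 0.18 and 0.17. Under that centring 1 of each list rose, where 14.8% of all genes rose.

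The early group pools 24 and 48 h, so the steps were also tested apart, with 1 mean per time. Between 24 and 48 h 0 of 331 genes passed by limma, 17 had an unadjusted p under 0.05 and the smallest adjusted p was 0.63. Without Het 24 h replicate 2, 40 genes passed, and with the replicate number as a block 12. In every fit without Het 24 h replicate 2, the wide Het 24 h replicate 1 is the only heterozygous 24 h array. Of the 91 fallen genes 80 had a lower mean at 48 than at 24 h, beside 201 of all 331 genes. When Het 24 h replicate 2 alone stood for 24 h, 60 of the 91 did, beside 153 of all 331. The median step of the fallen genes from 24 to 48 h was -0.49, beside -0.17 for all genes. From 48 to 96 h it was -1.36, beside -0.51 for all genes. Of the 11 risen genes 10 had a higher mean at 48 than at 24 h, beside 130 of all 331. The genes of smallest p between 24 and 48 h were Gm7390 (-3.45), Gstt2 (1.53), Trp53inp1 (2.57), Fxyd5 (2.71) and Cpd (1.34).

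Between 48 and 96 h 36 genes fell (10.9%) and 7 rose (2.11%), 13% in all, and between 24 and 96 h 82 fell (24.8%) and 12 rose (3.63%), 28.4% in all. Both counts rest on single arrays. Leaving out a 24 or 48 h array leaves 1 array at that time, which without Het 24 h replicate 2 is the wide Het 24 h replicate 1. The 43 calls from 48 to 96 h became 0 without Het 48 h replicate 2 or any of Het 96 h replicates 1 to 3, 2 without Het 48 h replicate 1 and 31 without Het 96 h replicate 4. The 94 calls from 24 to 96 h became 27 without Het 24 h replicate 1 and 149 without Het 24 h replicate 2.

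The same late minus early difference was fitted in Irf4 knockout (-/-) cultures of the same strain and tissue, with 3 arrays at each LPS time, in a model of all 17 mouse LPS arrays. Of the 9 knockout arrays 3 (24 h replicate 3 and 48 h replicates 1 and 3) carry a title that says knockout and channel labels that say heterozygous, and the titles were followed. In the knockout 75 of 331 genes fell (22.7%) and 5 rose (1.51%). Of the falls 61 were shared, which is 67% of the heterozygous falls and 81.3% of the knockout falls. Of the rises 1 was shared, which is 9.09% of 11 and 20% of 5. Without the 3 arrays of conflicting labels the knockout count was 1. It was 43, 38 and 52 without KO 96 h replicate 1, 2 or 3.

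The replication and growth lists fell in both genotypes. In the knockout 8 of 13 replication genes and 5 of 7 MYC-list genes fell, against 22.7% of all genes. Their medians were -1.72 and -1.67, beside -0.48 for all genes. Myc itself did not pass in the knockout (-0.81 ± 0.58 SE, limma adjusted p = 0.323). Pcna changed by -2.18 ± 0.39 in the knockout (SE, limma adjusted p = 0.00231), and the difference between the genotypes was -0.65 with a 95% interval of -1.84 to 0.54. Mcm2 changed by -2.15 ± 0.36 (SE, limma adjusted p = 0.00138), with an interval of the difference of -1.77 to 0.44. Nme1 changed by -2.09 ± 0.26 (SE, limma adjusted p = 0.000559), with an interval of -1.16 to 0.44. These intervals hold 0 and also differences of more than 1 log2 unit.

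**Figure D4:**
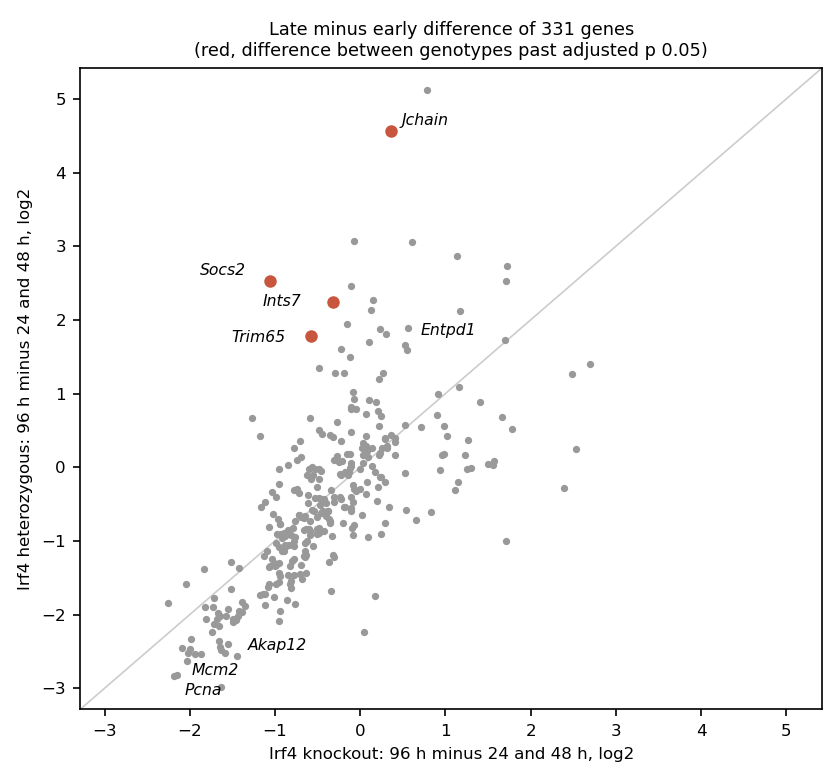
Late minus early difference in log2 units of 331 genes in Irf4 knockout (horizontal axis) and Irf4 heterozygous (vertical axis) cultures, with the line of equal change. Each point is a gene, and red points are Socs2, Jchain, Ints7 and Trim65, whose genotype difference passed; Pcna and Mcm2 lie at the lower left, low in both genotypes.

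The difference between the genotypes passed for 4 genes (1.21%), all with a higher late minus early value in the heterozygous cells. For Socs2 the knockout arrays lay at 0.77, -0.32 and -0.74 at 24 h, at -0.39, -0.60 and -0.57 at 48 h, and at -1.44, -1.35 and -1.29 at 96 h. The Socs2 value of the knockout fell by 1.05 on the log2 scale (SE 0.34, limma adjusted p = 0.0387) where the heterozygous value rose. The genotype difference was 3.58 ± 0.48 (SE, limma adjusted p = 0.00123). It passed in 25 of 25 alternative fits, with values of 3.27 to 4.93.

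For Jchain the knockout arrays lay between -4.98 and -2.59 at all LPS times, with a late minus early difference of 0.36 ± 0.47 (SE, limma adjusted p = 0.637). The genotype difference was 4.20 ± 0.67 (SE, limma adjusted p = 0.00368). It was lost when all 23 mouse arrays were fitted (limma adjusted p = 0.754) and without the arrays of conflicting labels (4.09, limma adjusted p = 0.0594), and kept in the other 23 of 25. Ints7 and Trim65 differed by 2.56 ± 0.54 and 2.36 ± 0.51 (SE, limma adjusted p = 0.0333 and 0.0357), and each passed in 12 of 25 alternative fits. Both were lost without the arrays of conflicting labels, without Het 48 h replicate 2, any KO 48 h array, any KO 96 h array or any of Het 96 h replicates 2 to 4 (limma adjusted p up to 0.159 and 0.131), and Trim65 also without Het 96 h replicate 1. Without Het 24 h replicate 2 there were 22 such genes, and in 10 of the 17 fits that left out 1 array there were 2.

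Iglv1 and Entpd1 came next, with differences of 1.57 and 1.32 (limma adjusted p = 0.0786 for both). Trim27 and Adck1, which lay near Ints7 and Trim65 in the heterozygous cells, differed by 2.12 ± 0.78 and 1.65 ± 0.76 (SE, limma adjusted p = 0.51 and 0.594). On 1 early knockout array, KO 24 h replicate 1, Trim27 lay at -0.93 and Adck1 at -2.01. On the other early knockout arrays they lay between 1.70 and 2.54 and between 0.76 and 1.84. Ints7 and Trim65 lay higher on KO 24 h replicate 1, at 2.2 and 2.4, than on the other early knockout arrays. The cause was not tested. Xbp1 differed by 0.83 with a 95% interval of 0.13 to 1.54 (limma adjusted p = 0.529), and Ell2 by 0.91 with an interval of 0.01 to 1.80 (limma adjusted p = 0.594). Myc differed by -0.83 with an interval of -2.58 to 0.93 (limma adjusted p = 0.808).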

How the data were processed

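The authors deposited log2 ratios of 12292 features per mouse array, with the direction and log base not stated, so Cy5 over Cy3 and base 2 were assumed. How the arrays were scanned, background-corrected and normalized is not given in the sources used here, and single-channel signals were not analysed here. By the platform annotation 559 features carry exactly 1 symbol, 44 carry more and 11689 are unnamed. Arrays were centred on their median and features averaged per symbol. Late minus early was tested with limma 3.58.1 (R 4.3.3), 2-sided, with Benjamini-Hochberg adjustment over 331 genes. Other contrasts used 1 mean per genotype and time. The test was run on simulated data in which each gene had the same spread on every array. These data held no wide array and no effect of the database range. That run checks the code and does not bear on those limits. The genes named are the 12 largest rises and falls that passed, up to 4 genes of smallest p per list, a fixed set of plasma cell and B-cell genes, and those of smallest p in the other contrasts. The members and lists were chosen with earlier results of these data known. Alternatives changed the centring, normalization, pooling of times, array weights, database range, replicate block and arrays included. No array pair was identical. The number of arrays limits the precision. Human arrays were not used here.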

Additional observations from a re-analysis of the deposited data

Results flagged for a closer look

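Among the named genes, 158 groups of 4 arrays were checked for 1 array far from the other 3, and 8 had one. Chance gives about 1 in 20 such groups. Of the 8, 5 came from Het 24 h replicate 1. On that array Mzb1 lay at -9.19 against -0.31 to 1.00 on the other early arrays, and the oxidase subunit Ncf1 at -6.90 against 1.43 to 2.12. The T-cell receptor gene Tcra lay at -4.74 against -0.67 to -0.18, Itgb5 at -4.29 against -1.84 to -1.66, and Cbfb at 1.46 against 0.54 to 0.67. The other 3 were each on a different array. Cybb, another oxidase subunit, lay at 3.40 on Het 48 h replicate 1, and the proteasome activator gene Psme1 at 0.11 on Het 48 h replicate 2 against 1.31 to 1.49. Foxp1 lay at -2.36 on Het 96 h replicate 3 against 1.40 to 2.09 on the other late arrays. The cause of these values was not tested.

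The late minus early difference was larger in heterozygous than in knockout cells, by the test of that difference, for Jchain (4.20), Socs2 (3.58), Ints7 (2.56) and Trim65 (2.36). Within the highest database range alone, where 48 h arrays stood for early, these values were 3.87, 3.57, 2.93 and 2.42, an alternative chosen after seeing the data. There the early heterozygous group was 1 array, Het 48 h replicate 2. Of the knockout 48 h arrays in that range, replicate 3 carries conflicting genotype labels.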

How the results depend on the processing

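Of the 42 named genes that passed, 27 passed in each of the 8 fits without 1 array and 31 under centring on the named features, 0 passed in all 25 alternatives, and 0 changed sign with a call. Leaving out 1 array gave 8 to 13 rises, 60 to 91 falls, 0 to 40 calls from 24 to 48 h, 0 to 31 from 48 to 96 h, 27 to 149 from 24 to 96 h, 38 to 119 in the knockout and 2 to 22 between genotypes. Centring on the named features gave 49 rises, 50 falls and 9 genotype differences. With 48 h alone as early 46 genes fell. The database range as a term left 1 rise and 0 falls, the highest range alone 2 rises and 0 falls, and that range with the knockout arrays' spread, added later, 43 falls. Features tested singly gave 0 rises and 0 falls. Correlations of deviations of arrays with the same replicate number ran from -0.23 to 0.06. With 2 arrays at 24 h and 2 at 48 h, the deviations at each of these times mirror each other. These correlations therefore cannot decide whether the numbers pair the arrays. With the number as a replicate block 5 genes rose and 25 fell, and calls were 12 from 24 to 48 h, 3 from 48 to 96 h and 46 from 24 to 96 h. Quantile normalization gave 3 calls from 48 to 96 h. Array weights gave 62 calls from 24 to 96 h, 195 in the knockout and 8 between genotypes. Fitting all 23 mouse arrays gave 35 and 1, leaving out the arrays of conflicting labels 1 and 1, and leaving out the lowest database range 140 and 7. Except where the alternative itself has fewer samples or more features, the cause was not tested.

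The arrays give no signal intensities here, so dim and saturated spots could not be told apart from measured ones. Late and early arrays share 1 database range only through Het 48 h replicate 2, so time and range cannot be told apart for the other early arrays. Only 1 dye orientation was hybridised.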

Other observations

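Some fallen genes outside the lists are named here one by one. They were chosen after their values were seen and stand for no group: measured genes of like roles that did not pass include the repair enzyme Neil1 (-0.07, limma adjusted p = 0.925) and the RNA-binding genes Rbm12 (1.40, limma adjusted p = 0.25) and Mbnl1 (0.41, limma adjusted p = 0.737). Apex1, which cuts abasic sites, fell by 1.96 on the log2 scale (limma adjusted p = 0.00385). Ercc1, a subunit of a repair nuclease, fell by 1.72 and Fanca, of the Fanconi anaemia pathway, by 1.55. H2ax, the histone variant that marks broken DNA, fell by 1.24, and its call was lost under centring on the named features (limma adjusted p = 0.284).

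Hnrnpd fell by 2.16, Hnrnpa1 by 1.94 and Hnrnph1 by 1.52 on the log2 scale, and the translation initiation factors Eif2s2 and Eif1a by 2.07 and 1.59. All 5 also fell under centring on the named features, with adjusted p from 0.0054 to 0.0451 by limma. Cycs, cytochrome c, fell by 2.40, and Psmd1, a proteasome subunit, by 2.36.

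The largest difference of any gene was in 5830408C22Rik, which did not pass (5.12 ± 2.01 SE, limma adjusted p = 0.0798). It lay between -9.54 and -0.69 on the early arrays and between -1.84 and 3.97 on the late ones, so the groups overlapped.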
